A study of Mus musculus with 6 samples.

Results

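AP-1 is a family of transcription factors whose members bind DNA as pairs, each partner contributing a basic leucine zipper (bZIP). Fos, Fosb, Fosl1 and Fosl2 encode the Fos class, which needs a partner from another class, whereas Jun, Junb and Jund encode the Jun class, which can also pair with itself. Atf3, Batf and Batf3 encode related bZIP proteins that pair with Jun proteins. Many of these genes are immediate-early genes, switched on within minutes of a stimulus through MAP kinases and through factors already bound to their promoters, and they are known to be induced in brain cells by the dissociation of the tissue. The members examined here are these 10 genes, chosen by name as the rows of the table that carry their symbols, of 18211 genes in all. All 10 were among the 13792 genes tested, but Fosl1 passed the filter on low values only through the DISC1-Δ3 libraries.

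Oligodendrocyte precursor cells (OPCs), the glia from which oligodendrocytes form, were taken at P7 from C57BL/6 mice by panning on antibody to Pdgfrα, and their poly(A) RNA was sequenced without culture. The DISC1-Δ3 group (3 libraries) carried NG2-CreERTM and 1 floxed copy of Disc1 exon 3, so that only 1 allele can be recombined, and only in cells in which the NG2 promoter is active, OPCs and pericytes among them. The wildtype group (3 libraries) carried no CreERT. Both groups received tamoxifen by gavage on the 4 days from P4 to P7. A difference between these groups therefore cannot be told apart from one made by CreERT together with tamoxifen. The labels do not say whether the libraries came from separate animals or from pools, so the p-values measure only the spread between these samples.

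Rounded expected counts, which divide a read that matches more than 1 gene between them, summed to 13716619 to 16417219 reads in wildtype and to 14229954 to 16138674 reads in DISC1-Δ3 libraries. DISC1-Δ3 replicate 3 stood apart from the other libraries of its group, as chi-square over its degrees of freedom was 5.39 and 4.99 against replicates 1 and 2 and 1.80 to 2.97 for the other pairs within a group. Disc1, the targeted gene, had 3.55 ± 0.238 RPKM in wildtype and 2.72 ± 0.240 RPKM in DISC1-Δ3 OPCs (SD, n = 3 each; log2 fold change -0.45, adjusted p = 0.000528), a value over the whole gene that does not resolve exon 3. The 8 OPC markers were all detected, with summed levels of 520 to 541 RPKM in wildtype and 657 to 680 RPKM in DISC1-Δ3 libraries, and Pdgfra, the panning target, had 17.5 and 25.9 RPKM. The 14 microglia markers were also all detected and summed to more, 16991 to 17324 RPKM in wildtype and 11972 to 12426 RPKM in DISC1-Δ3 libraries. Oligodendrocyte markers summed to 2473 to 2506 and 2276 to 2309 RPKM, and astrocyte markers to 1853 to 1889 and 1805 to 1816 RPKM. Both sums were above that of the OPC markers, while neuron, endothelial and pericyte markers summed to less. The labelled cell type thus had its markers, beside RNA with markers of other cell types. The large microglial amount was lower in DISC1-Δ3 libraries. In bulk RNA, fewer cells of a type and less RNA per cell cannot be told apart. The part of microglia or other cell types in the AP-1 values below was not tested. Below, OPCs means these preparations as a whole.

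The promoters of 5 members are shown because their genes are among the most abundant and include the 4 with the firmest changes. Jund, which is more abundant than Fosb, is not shown, and its window holds neither motif marked below. Each sequence is 120 bases of the RefSeq promoter on build GRCm38.p6, 5′ to 3′ on the strand of the gene. Each lies within the 250 bases before the RefSeq start of its gene. Capitals mark the motif TGACG, the first 5 letters of the cAMP response element, on either strand, or in Jun the motif TGACATCA, a match to that element with its middle G left free (TGACNTCA).
Fos (chr12:85473770-85473889, plus strand): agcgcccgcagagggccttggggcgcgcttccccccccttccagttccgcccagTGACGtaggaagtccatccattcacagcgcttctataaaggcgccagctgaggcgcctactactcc
Fosb (chr7:19310046-19310165, minus strand): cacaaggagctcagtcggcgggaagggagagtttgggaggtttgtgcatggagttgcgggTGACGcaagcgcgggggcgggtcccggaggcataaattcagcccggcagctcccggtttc
Jun (chr4:95052223-95052342, minus strand): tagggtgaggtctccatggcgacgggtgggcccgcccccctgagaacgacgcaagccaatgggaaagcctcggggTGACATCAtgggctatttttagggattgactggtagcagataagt
Junb (chr8:84978749-84978868, minus strand): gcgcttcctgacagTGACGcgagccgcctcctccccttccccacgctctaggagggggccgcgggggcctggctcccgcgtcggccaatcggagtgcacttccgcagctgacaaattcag
Atf3 (chr1:191183334-191183453, minus strand): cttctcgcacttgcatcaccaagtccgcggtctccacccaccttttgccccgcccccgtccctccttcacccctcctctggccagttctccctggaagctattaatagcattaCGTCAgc

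Windows were given for 9 members, all but Fosl1. They are set on RefSeq starts, which can differ from the ends of the GENCODE spans given below: the Jund window, chr8:70697489-70697738, lies wholly before the span of Jund, and the Atf3 window lies inside that of Atf3. TGACG, or CGTCA on the other strand, was found in 5 of them (Fos, Fosb, Junb, Atf3 and Batf) and in 17.75% of 32817 promoter windows of the same length. In Fos it lay 129 and 66 bases before the start, in Fosb 60, in Junb 106, in Batf 98, and in Atf3, on the other strand, 7 bases before it. TGACNTCA, or TGANGTCA on the other strand, was found in Jun only, 45 bases before the start, and in 7.493% of all windows. The AP-1 motif TGANTCA and the full element TGACGTCA, each its own reverse complement, were found in 0 of the 9 members' windows and in 6.753% and 1.548% of all windows, and the CArG box, the site of serum response factor, in 0 members and 1.469%. The E-box core CANNTG was found in 8 members and in 66.22% of all windows. TGACG and TGACNTCA were searched after the windows had been seen, and TGACGTCA overlaps both. Promoters in both directions of change carry TGACG, with Fosb among the higher and Junb and Atf3 among the lower genes below. These matches describe letters in a window, and do not show a site in use. Bases farther upstream than the windows were not searched. A motif missing from a window, such as the CArG box in that of Fos, may therefore still lie beyond it.

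The members spanned a wide range of levels, given here as RPKM, which is per transcript length and so allows different genes to be set side by side. In wildtype OPCs the order by mean was Junb, Jun, Atf3, Fos, Jund, Fosb, Batf, Batf3, Fosl2 and Fosl1. The first 6 did not overlap with their neighbours in that order in any library, whereas Batf and Batf3, and Batf3 and Fosl2, did. Among all genes in the table Junb ranked 68 and Jun ranked 92 by mean RPKM, so both were among the most abundant transcripts of these preparations. In DISC1-Δ3 OPCs the order was the same for Junb and Jun at the top, but Fos stood above Atf3 in every library, and Fosl2 above Batf3. The 10 members took up 0.866% to 0.880% of all reads in wildtype and 0.769% to 0.776% in DISC1-Δ3 libraries.

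**Figure D1:**
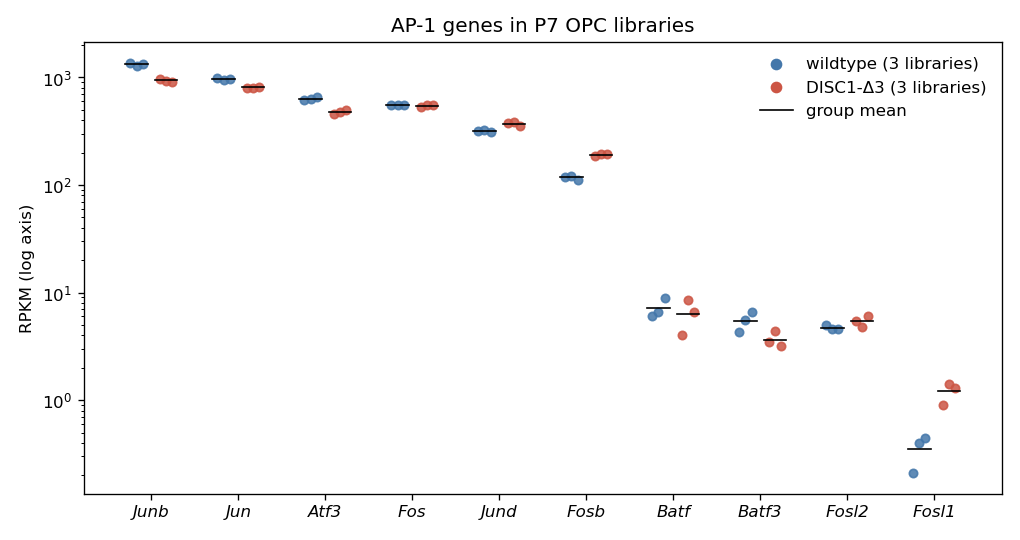
Level of each AP-1 gene in RPKM, on a logarithmic axis, in each of the 3 wildtype and 3 DISC1-Δ3 libraries; each point is 1 library. Junb and Jun are at the top and Fosl1 at the bottom in both genotypes, with Fosb higher and Junb, Jun and Atf3 lower in all DISC1-Δ3 libraries.

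Between the genotypes, Fosb, Fosl1 and Jund were higher in DISC1-Δ3 OPCs, Jun, Junb, Atf3 and Batf3 were lower, and Fos, Fosl2 and Batf did not pass the test. Thus 7 of 10 members passed edgeR's quasi-likelihood test at an adjusted p of 0.05, where 39.9% of all 13792 tested genes did. Of the members 3 were higher, against 20.4% of all tested genes, and 4 were lower, against 19.5%. The groups' RPKM did not overlap for 6 of the 10 members, where they did not overlap for 52.0% of tested genes. The median log2 fold change was -0.18 over the members and 0.01 over all tested genes. Fosl1 is in all these counts but that of the lower members, and passed the filter only through the DISC1-Δ3 libraries. At a minimum RPKM of 1, where Fosl1 was not tested, 6 members passed, 2 higher and 4 lower, against 41.8% of tested genes. Fold changes are given below as DISC1-Δ3 over wildtype, from counts scaled by TMM, which sets most genes to no change; they are lower than the ratio of the RPKM by about the shift of the median gene, 0.09 on the log2 scale.

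In the Fos class, Fosb (gene ID 14282), a Fos protein that is also made in a shortened form, changed most firmly. Its level was 119, 121 and 112 RPKM in wildtype replicates 1 to 3 and 187, 193 and 193 RPKM in DISC1-Δ3 replicates 1 to 3. All DISC1-Δ3 libraries lay above all wildtype libraries, with means of 118 ± 4.58 and 191 ± 3.23 RPKM (SD, n = 3 each). The log2 fold change was 0.62 (standard error 0.042, 95% interval 0.53 to 0.71, adjusted p = 2.39e-09), which is 1.54-fold. The gene lies at chr7:19302696-19310051 on the minus strand (GRCm38) and has 6 coding transcripts of 3 to 5 exons in GENCODE, which a value per gene does not separate.

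Fos (gene ID 14281), the best known immediate-early gene of the class, had 549.71, 555 and 554 RPKM in wildtype and 527, 551 and 558 RPKM in DISC1-Δ3 libraries. The groups overlapped, with means of 553 ± 2.87 and 545 ± 16.3 RPKM (SD, n = 3 each). Its log2 fold change was -0.10 (standard error 0.040, 95% interval -0.18 to -0.02, adjusted p = 0.0526), just short of the threshold. Fos passed as lower with DESeq2 (adjusted p = 0.0244) and without DISC1-Δ3 replicate 3 (adjusted p = 0.0146), while on unadjusted library totals its log2 fold change was -0.02 (adjusted p = 0.71). Fos has 4 exons, at chr12:85473890-85477273 on the plus strand.

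Fosl1 (gene ID 14283), which encodes Fra-1, was the least abundant member, with 0.21, 0.40 and 0.44 RPKM in wildtype and 0.90, 1.41 and 1.30 RPKM in DISC1-Δ3 libraries. The groups did not overlap, but the values rest on few reads, 4.48, 10.4 and 11.1 against 20.1, 35.6 and 32.7, with the fractions left by reads shared with other genes. The log2 fold change was 1.73 (standard error 0.35, 95% interval 1.002 to 2.47, adjusted p = 0.000659), and it was 0.70 on the scale of log2(RPKM + 1), where low genes are compressed. With its wildtype values all under the filter's 0.5 RPKM, Fosl1 could enter the reported fit only by being higher in DISC1-Δ3 libraries. Fosl1 overlaps Ccdc85b on the opposite strand, whose level was 6.29, 5.68 and 6.53 RPKM in wildtype and 10.84, 9.47 and 10.13 RPKM in DISC1-Δ3 libraries. The library protocol does not mark strand, so reads from the shared stretch cannot be told apart. Fosl2 (gene ID 14284), which encodes Fra-2, had 5.02, 4.58 and 4.60 RPKM in wildtype and 5.45, 4.76 and 6.01 RPKM in DISC1-Δ3 libraries. These groups overlapped, and the log2 fold change of 0.11 (95% interval -0.07 to 0.29, adjusted p = 0.315) did not pass.

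**Figure D2:**
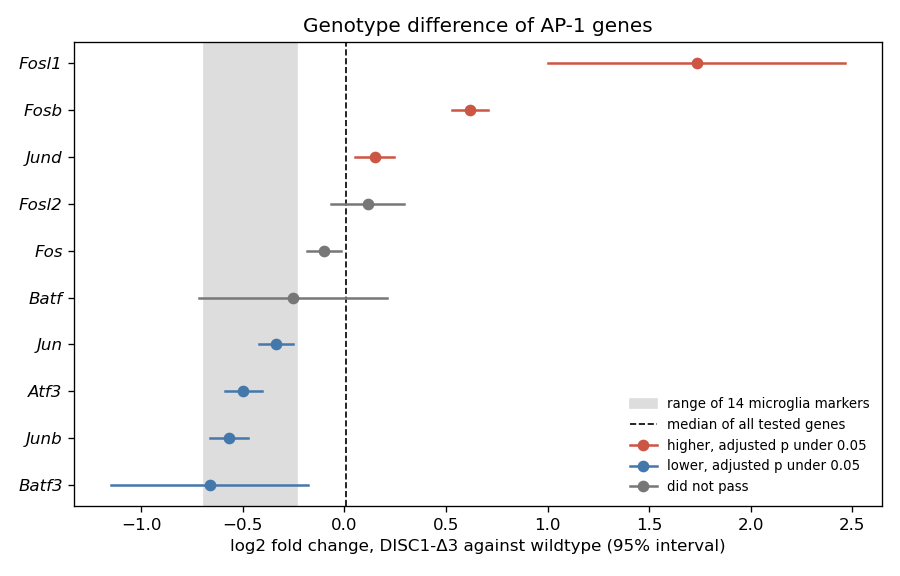
Fitted log2 fold change of each AP-1 gene, DISC1-Δ3 over wildtype, with its 95% interval from edgeR's quasi-likelihood fit. The dashed line is the median of all tested genes and the grey band the range of the 14 microglia markers. The intervals of Fosb, Fosl1 and Jund lie above 0, those of Fos, Jun, Junb, Atf3 and Batf3 below it, and those of Fosl2 and Batf include it; Fos, with an adjusted p of 0.0526, is not called.

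In the Jun class the genes moved in both directions. Junb (gene ID 16477) encodes a Jun protein with weaker activation of many target genes than Jun itself, and was the most abundant member, with 1366, 1274 and 1323.5 RPKM in wildtype and 977, 935 and 911 RPKM in DISC1-Δ3 libraries. All DISC1-Δ3 libraries were below all wildtype libraries, with means of 1321 ± 46.2 and 941 ± 33.3 RPKM (SD, n = 3 each) and a log2 fold change of -0.57 (standard error 0.044, 95% interval -0.66 to -0.48, adjusted p = 1.3e-08). Its coding transcript has 1 exon. The span of the gene, chr8:84974484-84978718 on the minus strand, overlaps that of Prdx2 on the plus strand. Whether the exon itself does was not examined. Prdx2 had 219, 243 and 253 RPKM in wildtype and 288, 295 and 279 RPKM in DISC1-Δ3 libraries. Jun (gene ID 16476), the founding member of the class, had 981, 953 and 961 RPKM in wildtype and 799, 805 and 821 RPKM in DISC1-Δ3 libraries. The groups did not overlap, and the means were 965 ± 14.6 and 808 ± 11.3 RPKM (SD, n = 3 each), with a log2 fold change of -0.34 (standard error 0.039, 95% interval -0.42 to -0.25, adjusted p = 1.99e-06). Jun also has 1 exon, at chr4:95049034-95052222 on the minus strand, with an antisense gene, Junos, annotated over it.

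Jund (gene ID 16478), the Jun gene whose expression is known to be the least dependent on stimulation, was higher in DISC1-Δ3 OPCs. Its level was 316, 322 and 311 RPKM in wildtype and 376, 384 and 352 RPKM in DISC1-Δ3 libraries. The groups did not overlap, with means of 316 ± 5.39 and 371 ± 16.7 RPKM (SD, n = 3 each), but the log2 fold change was small, 0.15 (standard error 0.045, 95% interval 0.05 to 0.24, adjusted p = 0.014). The call was lost without wildtype replicate 3 (0.14, adjusted p = 0.0714), without DISC1-Δ3 replicate 1 (0.12, adjusted p = 0.12) and without DISC1-Δ3 replicate 2 (0.10, adjusted p = 0.175), with fewer libraries in each of these fits. On library totals, which leave the shift of the median gene in place, the log2 fold change of Jund was 0.23. Jund has 1 exon, at chr8:70698949-70700616 on the plus strand, and an antisense gene is annotated over it.

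Atf3 (gene ID 11910), a stress-induced bZIP factor that can repress transcription, was lower, with 619, 630.25 and 654 RPKM in wildtype and 454, 474 and 498 RPKM in DISC1-Δ3 libraries. The groups did not overlap, the means were 634 ± 18.1 and 475 ± 21.8 RPKM (SD, n = 3 each), and the log2 fold change was -0.50 (standard error 0.043, 95% interval -0.59 to -0.41, adjusted p = 4.69e-08). Atf3 lies at chr1:191170296-191218039 on the minus strand, on the same chromosome as Batf3, at chr1:191097847-191108945 on the plus strand. Batf3 (gene ID 381319), best known for the development of dendritic cells, had 4.29, 5.53 and 6.58 RPKM in wildtype and 3.44, 4.35 and 3.19 RPKM in DISC1-Δ3 libraries. DISC1-Δ3 replicate 2 overlapped the wildtype range, and the values rest on 33, 52 and 61 against 28, 40 and 29 reads. Its log2 fold change was -0.66 (standard error 0.23, 95% interval -1.15 to -0.18, adjusted p = 0.0291).

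The call of Batf3 was the least firm of the lower members. It was lost without wildtype replicate 2 (log2 fold change -0.65, adjusted p = 0.0766), without wildtype replicate 3 (-0.51, adjusted p = 0.148), without DISC1-Δ3 replicate 1 (-0.65, adjusted p = 0.0643), without DISC1-Δ3 replicate 3 (-0.56, adjusted p = 0.0708) and with DESeq2 (-0.67, adjusted p = 0.0852), so that the fold stayed close to -0.66 in 3 of these 5 fits. Batf (gene ID 53314), a bZIP factor of lymphoid and myeloid cells, had 6.10, 6.53 and 8.95 RPKM in wildtype and 4.05, 8.46 and 6.57 RPKM in DISC1-Δ3 libraries. These groups overlapped in part, with DISC1-Δ3 replicate 1 below and wildtype replicate 3 above all libraries of the other group, and the log2 fold change of -0.25 (95% interval -0.71 to 0.21, adjusted p = 0.388) did not pass. Without DISC1-Δ3 replicate 3, the library that stood apart, the called members besides Batf3 had these log2 fold changes. They were 0.62 for Fosb, -0.34 for Jun, -0.54 for Junb, 0.19 for Jund, -0.53 for Atf3 and 1.68 for Fosl1. Of these, Jund lost its call in other fits, and Fosl1 rests on few reads.

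**Figure D3:**
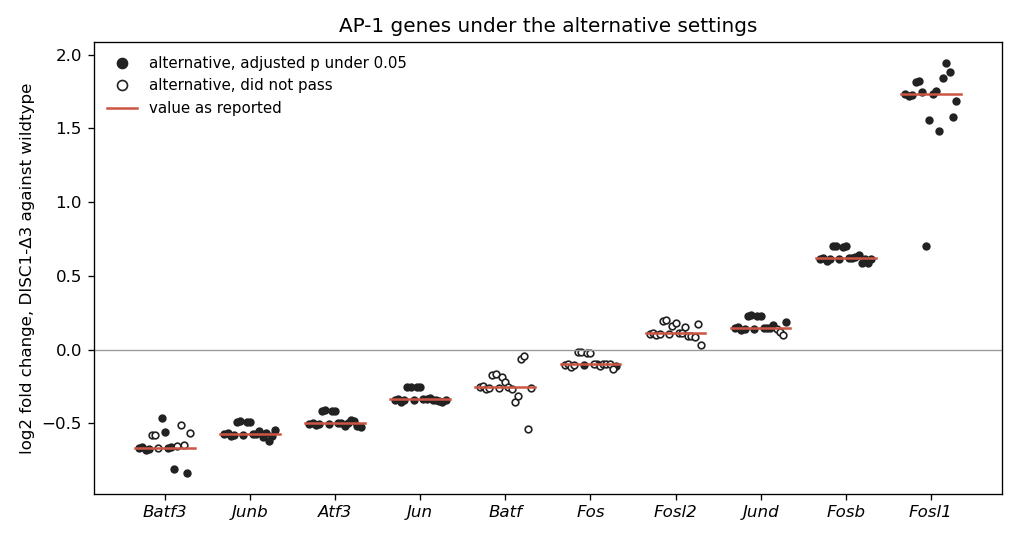
Log2 fold change of each AP-1 gene, DISC1-Δ3 over wildtype, in the reported fit (line) and under the other settings (points, filled where the gene passed), which change the filter, the scaling, the tool, the replicate block or leave out 1 library. No member changes sign; Fosb runs from 0.59 to 0.70, Junb from -0.62 to -0.48 and Fos from -0.13 to -0.01.

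Because the members form pairs with each other, their shares of the summed RPKM of the 10 genes were described as well, without a test. The sum itself was 3872 to 3967 RPKM in wildtype and 3334 to 3361 RPKM in DISC1-Δ3 libraries. The Fos class made up 17.2 ± 0.329% in wildtype and 22.2 ± 0.524% in DISC1-Δ3 libraries (SD, n = 3 each), and the Jun class 66.3 ± 0.734% and 63.3 ± 1.17%. Within these, Junb went from 33.7 ± 0.771% to 28.1 ± 1.08%, Fosb from 3.00 ± 0.136% to 5.70 ± 0.0760%, Fos from 14.1 ± 0.240% to 16.3 ± 0.439%, and Jund, against the direction of its class, from 8.05 ± 0.221% to 11.1 ± 0.492%, without overlap between the groups. The share of Jun overlapped, at 24.6 ± 0.167% and 24.1 ± 0.320%. Shares must sum to the whole, so a lower share of Junb by itself raises the shares of the others, and RNA shares are not protein or dimer shares.

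**Figure D4:**
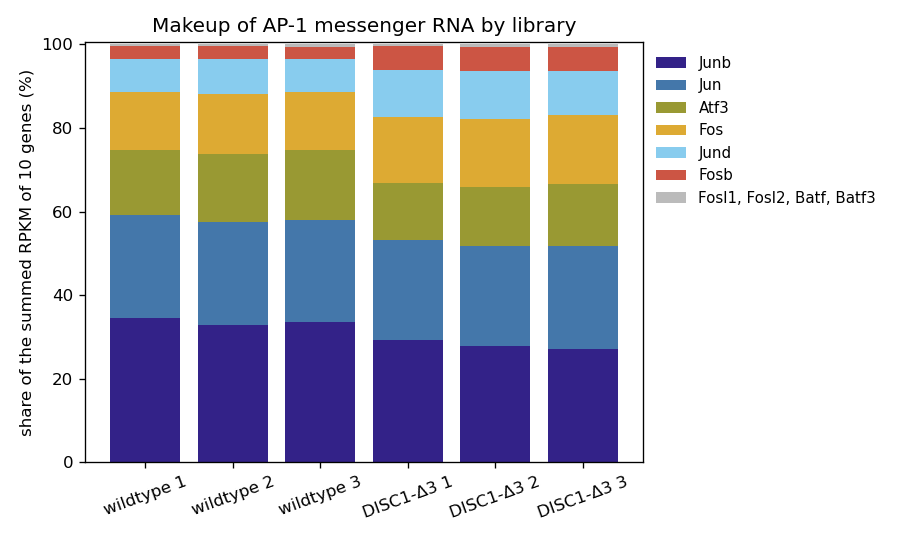
Share of the AP-1 genes in the summed RPKM of the 10 genes, in percent, as a stacked bar for each library, with Fosl1, Fosl2, Batf and Batf3 summed in grey. Junb takes the largest share in all 6 libraries, 32.9% to 34.4% in wildtype and 27.2% to 29.3% in DISC1-Δ3 libraries.

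Ratios between members do not depend on the scaling of the libraries. Fosb over Fos was 0.213 ± 0.00848 in wildtype and 0.350 ± 0.00502 in DISC1-Δ3 libraries (SD, n = 3 each), and Fosb over Junb was 0.0891 ± 0.00531 and 0.203 ± 0.0103. Jund over Jun was 0.328 ± 0.00866 and 0.459 ± 0.0262, Fos over Jun 0.573 ± 0.0116 and 0.675 ± 0.0134, and Junb over Jun 1.37 ± 0.0286 and 1.16 ± 0.0564. None of these 5 ratios overlapped between the groups, and the RPKM of 52.0% of single tested genes did not either. The ratios are made of the same values as the fold changes above, so they are not separate support. Each gave p = 0.1 in a two-sided exact permutation test, and 0.1 after Benjamini-Hochberg adjustment over the 5. This is the smallest p that 3 libraries against 3 allow. Groups without overlap always give it, so the test adds nothing to the lack of overlap.

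The other genes of the pathway were read from lists of partners, kinases, promoter factors, phosphatases, other immediate-early genes and targets. The counts of each list, here and below, are to be read beside those of all 13792 tested genes. Among these 20.4% were higher and 19.5% lower, with a median log2 fold change of 0.01. Of 16 kinases above AP-1, 3 were higher and 6 lower, with a median log2 fold change of -0.10. Mapk14, which encodes the stress kinase p38α, was lower (36.9 and 32.8 RPKM, log2 fold change -0.24, adjusted p = 0.000758). Mapk8, which encodes a JNK that phosphorylates Jun, had 5.09 and 4.71 RPKM and did not pass (-0.17, adjusted p = 0.111). The kinases with the largest changes were Rps6ka2, a ribosomal S6 kinase (5.63 and 9.35 RPKM, 0.65, adjusted p = 1.06e-06), and Map3k1, a kinase upstream of JNK (4.49 and 3.52 RPKM, -0.45, adjusted p = 0.000175).

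Of 11 factors known to act at the Fos and Jun promoters, 2 were higher and 6 lower, with a median of -0.21. Srf, which encodes serum response factor, was higher (18.8 and 22.9 RPKM, 0.23, adjusted p = 0.00487), as was its partner Elk1 (9.15 and 13.5 RPKM, 0.49, adjusted p = 9.56e-05), and Mef2a, a MADS-box factor, fell most (30.9 and 20.1 RPKM, -0.70, adjusted p = 2.04e-06). The count of 8 fell to 5 on library totals, on RPKM sums and in both limma fits. Of 10 MAP kinase phosphatases, which switch the kinases off, 2 were higher and 4 lower, with a median of -0.01. Dusp1 was lower (474 and 371 RPKM, -0.43, adjusted p = 1.71e-07), Dusp2 fell most (85.6 and 55.2 RPKM, -0.71, adjusted p = 1.98e-09), and Dusp5 rose (15.9 and 23.8 RPKM, 0.50, adjusted p = 0.000336).

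Of 14 bZIP partners and relatives, 2 were higher and 4 lower, with a median of -0.08. These 6 calls are near the share over all tested genes, 39.9%. Crem, a cAMP-responsive factor, rose most (1.60 and 2.77 RPKM, 0.72, adjusted p = 0.00137), and Nfe2l2, the NRF2 factor of the oxidative stress response, fell most (61.7 and 46.3 RPKM, -0.49, adjusted p = 1.18e-07). The 21 other immediate-early genes were split, with 7 higher and 9 lower and a median of -0.01, while their summed level was 4104 to 4178 RPKM in wildtype and 2976 to 3159 RPKM in DISC1-Δ3 libraries. Egr1, a zinc finger factor induced together with Fos, did not pass (484 and 509 RPKM, -0.01 after TMM scaling, adjusted p = 0.89). Ier2 was lower (203 and 172 RPKM, -0.32, adjusted p = 1.77e-05), as was Btg2, an antiproliferative gene (154 and 90.0 RPKM, -0.86, adjusted p = 2.84e-11), whereas the orphan receptor gene Nr4a3 rose from a low level (1.17 and 3.07 RPKM, 1.20, adjusted p = 3.4e-07).

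Of 20 genes known as AP-1 targets in other systems, 17 were tested, and 8 were higher and 3 lower, with a median of 0.20. Among all tested genes 20.4% were higher and 19.5% lower. Spp1, which encodes osteopontin, rose most (14.03 and 48.8 RPKM, 1.72, adjusted p = 2.88e-12), and Ccnd1, which encodes cyclin D1, did not pass (30.7 and 33.1 RPKM, 0.03, adjusted p = 0.725). None of these 17 was tested for AP-1 binding here. Heat shock genes, which like AP-1 genes respond to stress of the cells, were mostly lower, 8 of 13, with 1 higher and a median of -0.37. Dnajb1 fell most (86.5 and 61.3 RPKM, -0.58, adjusted p = 1.72e-08), and Dnaja1 was the higher one (32.1 and 38.7 RPKM, 0.19, adjusted p = 0.0192). The summed level of the heat shock genes was 5871 to 6012 RPKM in wildtype and 5030 to 5387 RPKM in DISC1-Δ3 libraries, and the part of stress during isolation in the AP-1 values was not tested.

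**Figure D5:**
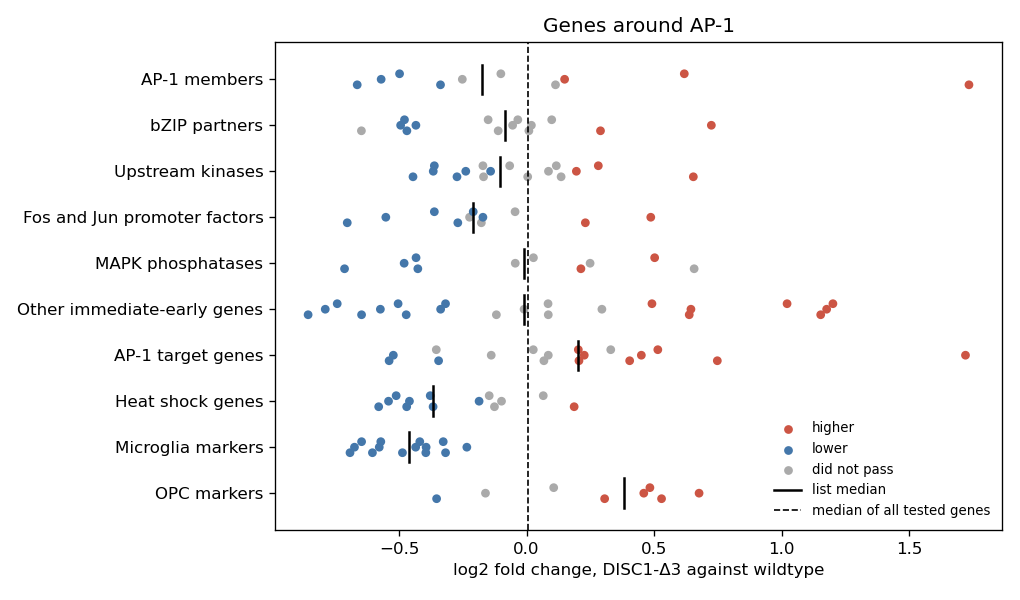
Log2 fold change, DISC1-Δ3 over wildtype, of each tested gene of the AP-1 family, the pathway lists, and the microglia and OPC markers; each point is 1 gene, coloured by its call, the bar its list's median and the dashed line the median of all tested genes. The median is -0.18 for the AP-1 genes, -0.37 for the heat shock genes, -0.46 for the microglia markers and 0.38 for the OPC markers.

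Marker lists moved beside the AP-1 genes, where 20.4% of all tested genes were higher and 19.5% lower. All 14 microglia markers were lower, with log2 fold changes from -0.69 to -0.23. C1qb, a complement gene, fell most of them (3099 and 2026 RPKM, -0.69, adjusted p = 8.67e-10), Cx3cr1 had 475 and 384 RPKM (-0.39, adjusted p = 8.71e-07) and P2ry12 had 360 and 325 RPKM (-0.23, adjusted p = 0.000114). The fitted values of Jun, Junb, Atf3, Batf3 and Batf lay within that range, and those of Fosb, Fosl1, Fosl2, Jund and Fos above it. Of 8 OPC markers 5 were higher and 1 lower, with a median of 0.38. Gpr17, a receptor of committed precursors, rose most (61.7 and 104 RPKM, 0.68, adjusted p = 1.39e-09) and Ptprz1 fell (102 and 84.9 RPKM, -0.35, adjusted p = 9.16e-05). Pdgfra rose as well (log2 fold change 0.48, adjusted p = 2.42e-07). Whether these marker differences reflect cell makeup, and what part they have in the values of the 7 AP-1 genes that passed, was not tested.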

How the data were processed

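Poly(A) RNA of 6 libraries (3 wildtype, 3 DISC1-Δ3) was read in 50-base single-end reads. The authors deposited a table with expected counts, in which reads matching several genes are divided (90.2% of values above 0 are exactly whole as deposited), and RPKM, the count per transcript length and library total. The submitters' processing notes name Bowtie2 2.2.5 and mm10; the counter and annotation are not given in the sources used here, and 4 columns of group averages were not used. Expected counts were rounded and tested by genotype with edgeR's quasi-likelihood test (edgeR 4.0.16, R 4.3.3) after TMM scaling, for genes that reached 0.5 RPKM in 3 or more libraries. P-values are two-sided and adjusted by Benjamini-Hochberg over all 13792 tested genes (threshold 0.05). The fit was tested on simulated data. The floor of 3 reads is 0.183 to 0.219 CPM, and covers counting error only.

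The members and lists were chosen with earlier results of these data known. All members are named. From each other list the called genes with the largest rise and fall are named, plus Mapk8, Mapk14, Srf, Dusp1, Egr1, Ier2, Ccnd1, Pdgfra, P2ry12, Cx3cr1, Cldn5, Gfap and, as the target, Disc1; genes that this rule also names are not reported here. Alternatives, 17 in all, were no filter, an RPKM of at least 1, filterByExpr, median-of-ratios scaling, library totals, RPKM sums, DESeq2 1.42.0, limma 3.58.1 on log2(RPKM + 1) and log2(RPKM + 0.1), robust dispersion, the replicate number as a block, and each library left out in turn. Promoter windows are from RefSeq (GRCm38.p6), gene positions from GENCODE M21 (GRCm38). Protein sequences were not used here.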

Additional observations from a re-analysis of the deposited data

How the results depend on the processing

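Over 17 alternatives no AP-1 gene changed sign, and Fosb, Jun, Junb and Atf3 passed the threshold under each. Fosl1 passed under 16, and was not tested with a minimum RPKM of 1. Except without a filter and with filterByExpr, those fits kept the filter at 0.5 RPKM. Fosl1 met it only through its higher DISC1-Δ3 values, so these passes are not separate support. The count of AP-1 genes called ran from 5 to 8, from 5 to 7 with 1 library left out, while 31.5% to 45.2% of all tested genes were called. The lowest, 5, was reached when either wildtype replicate 3 or DISC1-Δ3 replicate 1 was left out. The count over the 7 pathway lists, heat shock genes included, was 65 of 102 tested genes and ran from 59 to 77, the highest without DISC1-Δ3 replicate 3. Batf3 was also lost on library totals (adjusted p = 0.0512) and on RPKM sums (adjusted p = 0.0519). On these scalings the median of all genes was 0.09, and 69.1% and 70.0% of calls were higher, against 51.1% with TMM. Same-numbered libraries of the groups barely deviated together (correlations 0.0409, 0.0445 and 0.00414). These lay above the correlations of differently numbered libraries, -0.0431 to 0.00318, but were all small. The numbers were therefore not taken as pairs in the reported fit. With the replicate number as a block, 8 AP-1 genes were called, Fos being added (-0.10, adjusted p = 0.0358), the pathway count was 66, and 5429 genes were called in all, against 5498. Few reads limit Fosl1 and Batf3, and 3 libraries a group limit all tests.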

Other observations

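Other marker lists were read in the same fit, in which 20.4% of all tested genes were higher and 19.5% lower. Of 8 oligodendrocyte markers 7 were lower and 0 higher, with a median log2 fold change of -0.46, and Enpp6, a gene of newly formed oligodendrocytes, fell most (14.4 and 8.51 RPKM in wildtype and DISC1-Δ3, -0.88, adjusted p = 3.61e-08). Of 8 neuron markers 7 were higher, with Syt1, a synaptic vesicle gene, rising most (3.48 and 7.05 RPKM, 0.96, adjusted p = 9.34e-08), and of 8 pericyte markers 7 were higher, with Tagln rising most (8.12 and 13.8 RPKM, 0.68, adjusted p = 3.41e-05). Of 8 endothelial markers 4 were higher, among them Cldn5, a tight junction gene (58.5 and 80.9 RPKM, 0.39, adjusted p = 1.57e-05). Astrocyte markers were mixed, 2 higher and 5 lower of 8, with Gfap at 142 and 189 RPKM (0.34, adjusted p = 2.97e-06) and the glutamate transporter gene Slc1a2 at 190.3 and 135 RPKM (-0.59, adjusted p = 2.77e-08).

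The genes outside the family whose pattern over the 6 libraries was closest to Fos, by the root mean square difference of centred log2 CPM, were Camta2 (0.00556), Sumf2 (0.0123), Kmt5c (0.0170), G6pdx (0.0177) and Mobp (0.0182). For Jun they were Bin1 (0.0189), Gpam (0.0193), Rnase4 (0.0211), Tagap (0.0228) and Itpr2 (0.0229). These lists describe 6 libraries, and the 5 for Fos were, like Fos, not called.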
